A study of Mus musculus with 2 samples.

Results

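The beta-cell homeodomain and Maf factors are 9 transcription factor genes, Pdx1, Nkx6-1, Nkx6-2, Nkx6-3, Mnx1, Isl1, Isl2, Mafa and Hhex, of 21887 protein-coding mouse genes that were looked up. They were chosen by name and not by any measured value, but with earlier results of these data known. Each was sought in a table of the genes nearest to regions whose DNA methylation differed between Ngn3 null and Ngn3 heterozygous cells of the E14.5 mouse pancreas. The null cells carry an eGFP reporter on both alleles of Ngn3 (Ngn3eGFP/eGFP) and the heterozygous cells carry it on 1 allele (Ngn3eGFP/+), so every cell sorted carried at least 1 reporter allele. Ngn3, now named Neurog3, encodes the basic helix-loop-helix factor that commits pancreatic cells to the endocrine lineage. Both genotypes were sorted for eGFP, were of mixed background (over 95% ICR, with under 2.5% each of C57Bl/6 and 129svev) and were sequenced after bisulfite conversion as 1 library per genotype. The labels name the null cells endocrine progenitors and the heterozygous cells islet progenitors, so genotype and cell stage cannot be told apart. The table holds gene names only, which cannot be set against cell type markers by level.

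The homeodomain is a helical fold that binds DNA at short sites with a TAAT core, and many homeodomain factors act as lineage selectors. Pdx1 is needed for the pancreatic bud to grow and later for insulin gene transcription. Nkx6-1 maintains beta-cell identity, Mnx1 acts in the early dorsal bud and again in beta cells, and Isl1 is a LIM homeodomain factor of the islet and of motor neurons. Mafa, a basic leucine zipper protein of the large Maf group, binds the insulin promoter in mature beta cells. A cytosine followed by guanine (a CpG site) is where most methylation of mammalian DNA lies, and CpG-rich promoters are usually kept unmethylated.

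Of the 9 factors, 5 were nearest to regions with higher methylation in null than in heterozygous cells (the higher list), and 0 were nearest to regions with lower methylation in null cells (the lower list). Nkx6-1, Nkx6-2, Nkx6-3, Mnx1 and Isl2 were in the higher list. Pdx1, Isl1, Mafa and Hhex were in neither list. All 3 genes of the Nkx6 family were therefore named, whereas 1 of the 2 Isl genes was. Across all 21887 protein-coding genes, 12.1% were in the higher list (exact Clopper-Pearson 95% interval 11.7 to 12.5%, counting error only) and 1.51% in the lower list (1.35 to 1.68%). The 9 factors thus stood at 55.6% against 12.1% in the higher list, a comparison of shares with no test, because 9 chosen genes are not replicates and each genotype had 1 library. A name in a list says that at least 1 region was nearest to that gene. The table gives no size of the methylation difference, no coverage, and no position or number of regions, so a gene in neither list is not shown to be alike in null and heterozygous cells.

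The Nkx6 genes encode NK homeodomain proteins that act largely as repressors. Nkx6-1 (chromosome 5, 101659184 to 101664711, GRCm38.p6, 5.53 kb) restricts progenitors to the beta-cell fate. Nkx6-2 (chromosome 7, 139579376 to 139582797, 3.42 kb) is its close paralog, active in the embryonic pancreas and in oligodendrocytes, and Nkx6-3 (chromosome 8, 23153271 to 23158948, 5.68 kb) acts in the stomach and brain. The 3 genes lie on 3 chromosomes, so no region can have been shared between them. Of the other NK homeobox genes, from Nkx1-1 to Nkx3-2, the higher list held 0 of 11 and the lower list also 0. Among them is Nkx2-2, a repressor needed for beta cells, which was in neither. Across all protein-coding genes the shares were 12.1% (higher) and 1.51% (lower). The sets of 3 and 11 genes were drawn up with the lists known, and the difference between them was not tested.

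Mnx1 (chromosome 5, 29473823 to 29478470, 4.65 kb) was in the higher list. It encodes the homeodomain factor also called Hb9, known from motor neurons as well as from the pancreas. Nkx6-1 and Pdx1 lie on the same chromosome as Mnx1, with many genes between them. Hhex (chromosome 19, 37434841 to 37440731, 5.89 kb), a homeodomain factor of the early ventral bud and, in adults, of delta cells, was in neither list.

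Isl1 and Isl2 are LIM homeodomain paralogs that gave different answers. Isl2 (chromosome 9, 55538677 to 55547667, 8.99 kb), known mainly from motor and retinal neurons, was in the higher list. Isl1 (chromosome 13, 116298270 to 116309688, 11.4 kb), the paralog required for islet cell differentiation, was in neither. Among 10 other LIM homeobox genes, Lhx5 (chromosome 5, 120431886 to 120441457) was in the higher list and Lhx1 (chromosome 11, 84517975 to 84525534) in the lower list. Both of these encode LIM factors of the developing brain, and Lhx1 also acts in the kidney. That is 1 of 10 in each direction, against 12.1% (higher) and 1.51% (lower) of all protein-coding genes.

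Pdx1 (chromosome 5, 147270097 to 147275848, 5.75 kb), the ParaHox factor at the head of the pancreatic programme, was in neither list. Its protein-coding neighbours Gsx1, 79.1 kb before it, and Cdx2, 25.1 kb after it, are the other genes of the ParaHox cluster, and both were also in neither. Mafa (chromosome 15, 75745501 to 75748321, 2.82 kb) was in neither list. Of 6 other genes of the Maf family, the higher list held 2 and the lower list held 0. One in the higher list was Nrl (chromosome 14, 55518978 to 55524981), the rod photoreceptor factor.

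**Figure D1:**
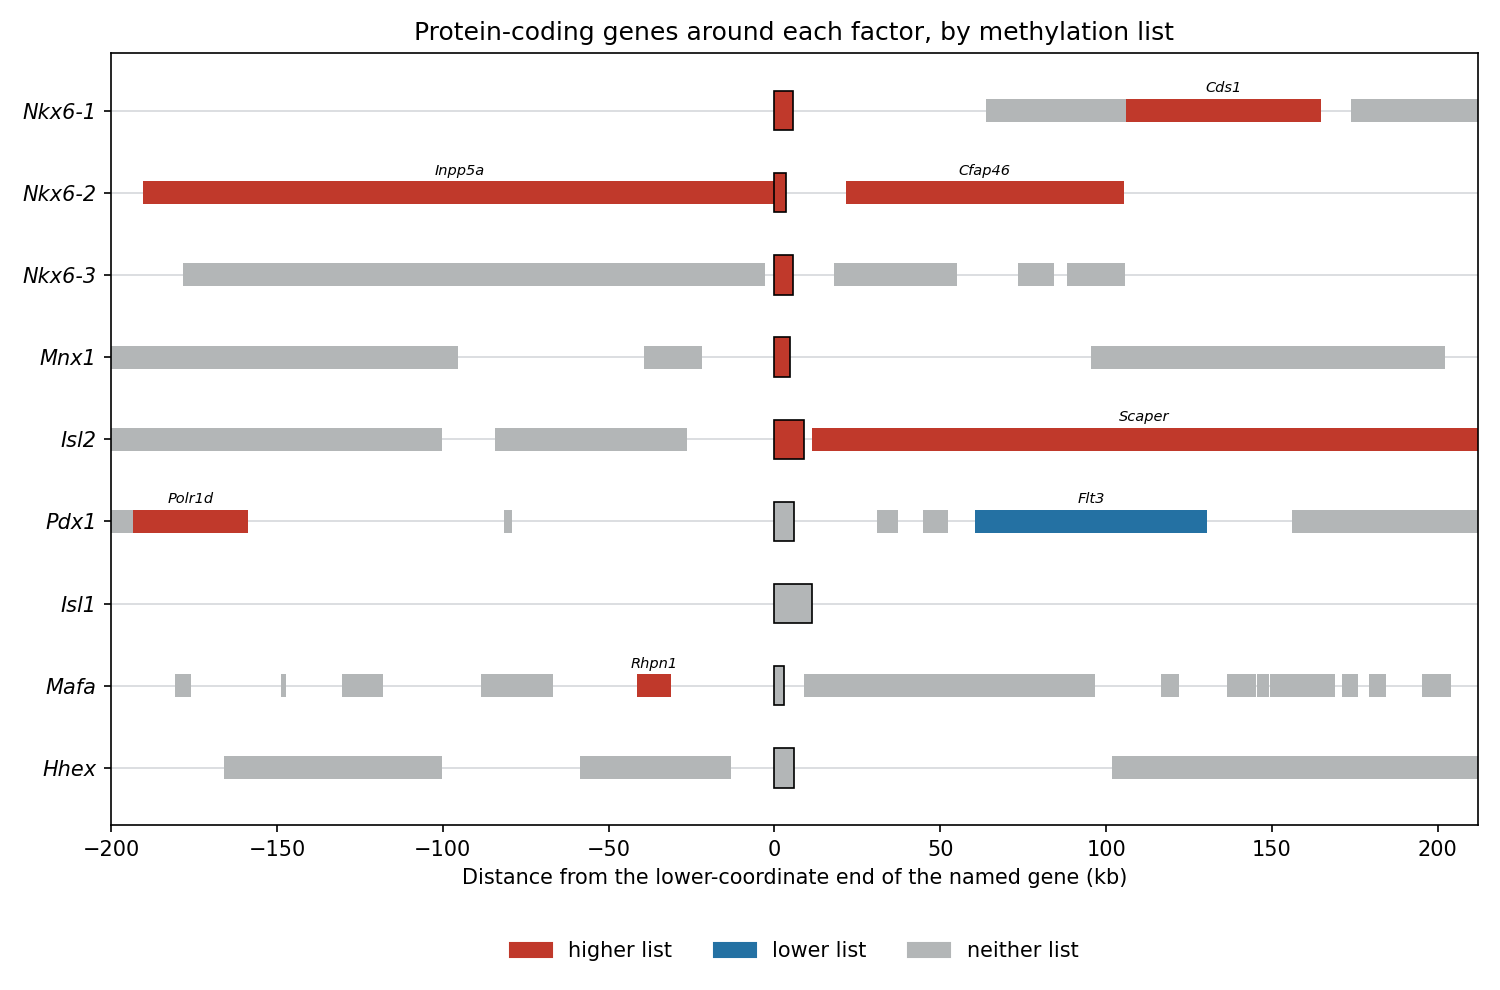
Protein-coding genes around each of the 9 factors, by distance in kb from the end of the factor with the lower coordinate. Each row is 1 locus, the outlined box is the factor and the other boxes are its neighbours. Red marks the higher list, blue the lower list and grey neither list. Nkx6-2 has a red gene on either side and Isl2 has Scaper beside it. Nkx6-3, Mnx1 and Hhex have no other protein-coding gene of either list within 200 kb. Genes of other classes were not mapped.

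A region is given to the nearest gene, so the genes beside each factor bear on how a name came into the list. The maps show all protein-coding genes within 200 kb of each factor. Nkx6-2 was flanked by genes of the higher list on both sides, Inpp5a, an inositol phosphatase gene whose end overlaps it, and Cfap46, a cilia gene 18.1 kb away. Isl2 lies 2.21 kb from Scaper, also in the higher list, and 26.4 kb from Etfa, a mitochondrial electron transfer gene in neither. Nkx6-3 lay between Ank1 (2.77 kb away) and Gpat4 (12.3 kb away), both in neither list. Mnx1 likewise lay between Nom1 (21.7 kb) and Ube3c (90.8 kb), both in neither list.

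Nkx6-1 had the predicted gene Gm42134 (58.4 kb away, in neither list) on the right side, followed by Cds1 of the higher list. On its left the next protein-coding gene was Gpat3, 760.1 kb away, which was in the lower list. Among the factors in neither list, Mafa had Rhpn1 of the higher list at 31.1 kb and Zc3h3, in neither, at 6.11 kb. Hhex lay 13.0 kb from Kif11 and 96.0 kb from Exoc6, both in neither. Around Pdx1, Polr1d was in the higher list and the receptor gene Flt3 in the lower list. Cds1, Polr1d and Flt3 do not adjoin a factor and were picked out after the lists had been seen.

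Of the 5 factors in the higher list, 2 had at least 1 adjacent protein-coding gene in the same list, and of the 4 others 1 did. Across the genome the share was 51.9% of 2645 genes in the higher list and 17.6% of 19242 genes outside it. Named genes thus tend to sit beside named genes. Whether the authors gave 1 region to a single gene or to a gene on each side is not stated in the labels or the file headers, so Nkx6-2 and its neighbours may not be separate observations, and the same holds for Isl2 and Scaper.

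Genes with a longer stretch of genome nearest to them were named more often. This territory was taken as the gene together with the nearer part of the gap to the next protein-coding gene on its left and on its right, up to the midpoint. The share of genes in the higher list was 3.02% in the shortest territory decile and 29.9% in the longest. Nkx6-2 and Nkx6-3 had territories of 12.5 and 13.2 kb, both in the second decile, where 4.29% of genes were in the higher list. Isl2 had 23.3 kb, in the third decile, where 4.80% were. By this measure these 3 factors were named from short territories. The nearest-gene rule of the authors is not known, so the stretch of genome that could name a gene may differ from its territory.

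Mnx1 had a territory of 60.9 kb, in the sixth decile, where 8.86% of genes were in the higher list. Nkx6-1 had 414.8 kb, in the longest decile. Isl1 had the largest territory of the 9 factors, 880.2 kb, with the next protein-coding genes 1196 kb before it and 541.2 kb after it. It was in neither list. In this longest decile 29.9% of genes were in the higher list, so most genes there were not. Pdx1 and Hhex (57.9 and 60.4 kb) shared the sixth decile with Mnx1, and Mafa (21.4 kb) shared the third decile with Isl2. Named and unnamed factors thus overlapped in territory, and in 3 of the 4 deciles that hold a factor, 1 factor in the higher list stood beside 1 or more in neither.

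**Figure D2:**
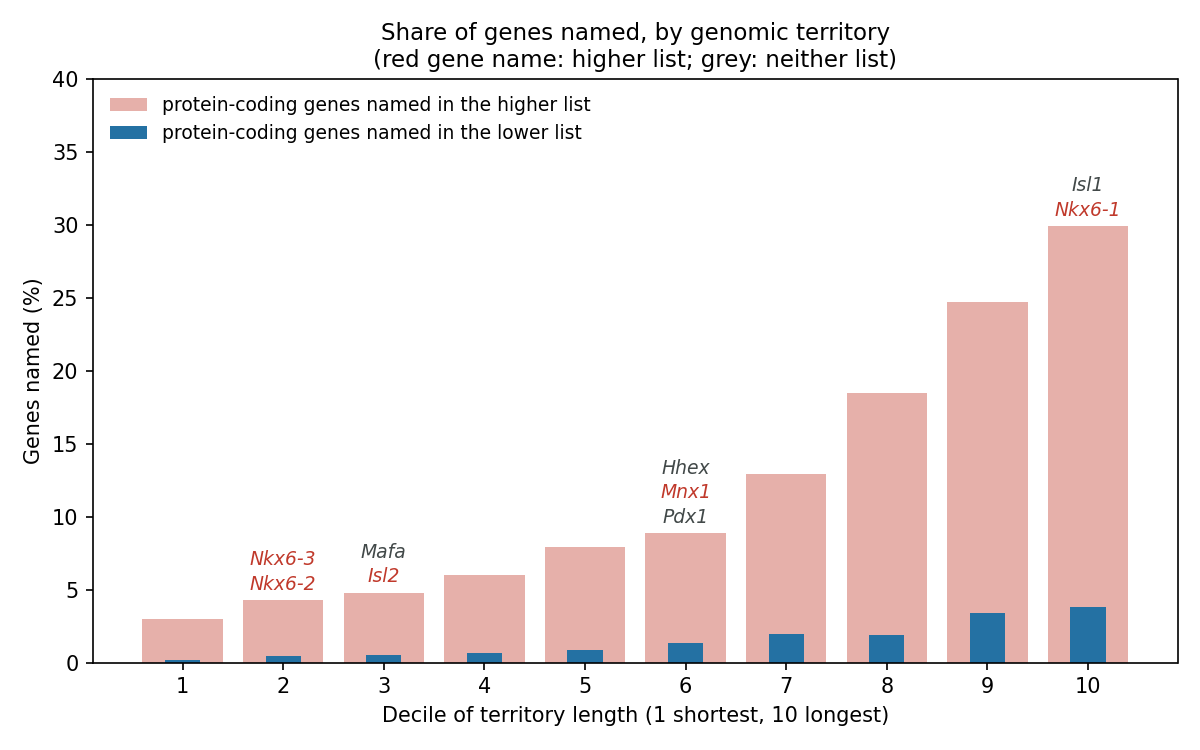
Percentage of protein-coding genes named in the higher (pale red bars) and lower (blue bars) lists for each decile of territory, from shortest to longest. Gene names above a bar mark the decile of each factor, red for the higher list and grey for neither. The higher list share is 29.9% in the longest decile, which holds Nkx6-1 and Isl1, and 4.29% in the decile of Nkx6-2 and Nkx6-3.

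Promoter sequence was examined next, since bisulfite sequencing reads methylation at CpG sites. The reference promoters (RefSeq, GRCm38.p6) run from 250 bases before to 50 bases after the gene start and were found for 7 of the 9 factors, all but Nkx6-3 and Mafa. The 250 bases before the start are printed for 4 of them, with each CpG site in capitals. They show starts with more and with fewer CpG sites, and that either kind of list status occurs at CpG-dense ones. Nkx6-1 and Mnx1 were in the higher list, Isl1 and Pdx1 in neither.
Nkx6-1 (chr5:101664712-101664961, minus strand): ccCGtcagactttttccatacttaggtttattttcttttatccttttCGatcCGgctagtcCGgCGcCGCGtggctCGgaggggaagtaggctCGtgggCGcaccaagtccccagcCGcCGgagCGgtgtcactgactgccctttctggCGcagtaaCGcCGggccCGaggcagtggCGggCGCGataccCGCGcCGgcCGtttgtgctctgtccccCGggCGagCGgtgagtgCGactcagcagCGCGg
Mnx1 (chr5:29478471-29478720, minus strand): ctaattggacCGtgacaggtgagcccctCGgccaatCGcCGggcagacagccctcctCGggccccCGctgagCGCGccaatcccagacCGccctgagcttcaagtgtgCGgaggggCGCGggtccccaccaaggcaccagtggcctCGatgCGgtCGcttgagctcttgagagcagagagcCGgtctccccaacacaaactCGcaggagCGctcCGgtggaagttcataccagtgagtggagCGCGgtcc
Isl1 (chr13:116309689-116309938, minus strand): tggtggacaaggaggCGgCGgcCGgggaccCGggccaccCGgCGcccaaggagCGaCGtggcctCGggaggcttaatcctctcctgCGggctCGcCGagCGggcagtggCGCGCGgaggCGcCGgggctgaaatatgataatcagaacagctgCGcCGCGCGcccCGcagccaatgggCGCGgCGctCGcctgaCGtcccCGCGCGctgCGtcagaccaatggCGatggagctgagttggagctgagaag
Pdx1 (chr5:147269847-147270096, plus strand): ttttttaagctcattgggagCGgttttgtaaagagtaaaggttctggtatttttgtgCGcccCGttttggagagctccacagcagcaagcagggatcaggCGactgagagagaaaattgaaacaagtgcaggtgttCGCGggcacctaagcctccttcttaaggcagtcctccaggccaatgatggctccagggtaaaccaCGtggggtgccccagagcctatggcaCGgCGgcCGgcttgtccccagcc
The 4 stretches hold 30 CpG sites for Nkx6-1, 21 for Mnx1, 33 for Isl1 and 10 for Pdx1.

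In the whole window of 300 bases Nkx6-1 had 40 CpG sites, Nkx6-2 32, Mnx1 26 and Isl2 23. For Isl2 the window begins inside the annotated gene, at a start downstream of its first base. The factors in neither list had 37 for Isl1, 37 for Hhex and 11 for Pdx1. The median over the 7 factors was 32 sites, against a median of 7 and quartiles of 3 and 20 over 32851 reference promoters. Those promoters include starts of long noncoding RNA genes and, for some genes, more than 1 start. Among protein-coding genes, taking the promoter with the most CpG sites, the median was 21 for genes in the higher list and 13 for the rest. Pdx1 was below both of these, and the other 6 factors were above both. The factors in the higher list ranged from 23 to 40 sites and those in neither from 11 to 37, so they overlapped. Pdx1 had the fewest, with 58.6% of all promoters having fewer, against 96.1% for Nkx6-1.

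CpG-dense starts were more often named across the genome. Of protein-coding genes with a reference promoter, 22.3% of those in the highest decile of CpG sites were in the higher list, and 2.23% of those in the lowest. Nkx6-1, Isl1 and Hhex fell in the highest decile, where 1 of these 3 factors was named. The table does not say whether any region lay in a promoter, so these counts describe the sequence and not its methylation.

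**Figure D3:**
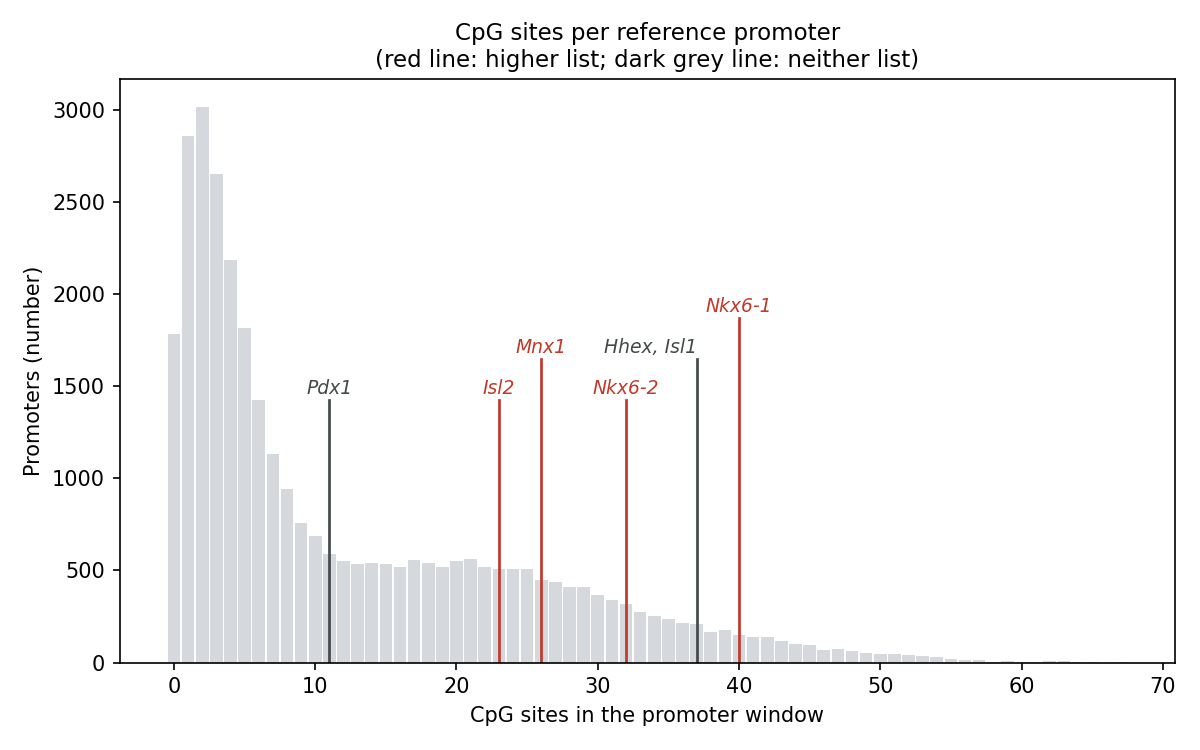
Number of CpG sites in the promoter window of 32851 reference promoters (grey bars), with the 7 factors that have a promoter sequence marked by lines, red for the higher list and dark grey for neither. Isl2, Mnx1, Nkx6-2 and Nkx6-1 lie between 23 and 40 sites, Pdx1 at 11, and Isl1 and Hhex both at 37.

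The homeodomain core TAAT, searched on both strands so that TAATTA counts once on each, occurred in the promoter windows of Nkx6-2 and Mnx1 (1 match each) and Isl1 (2 matches), and in those of 58.0% of all promoters. It was absent from the windows of Nkx6-1, Isl2, Hhex and Pdx1. The E-box CANNTG, the general site of basic helix-loop-helix factors such as Neurog3, which reads alike on both strands, occurred 3 times each in Pdx1 and Mnx1 and once each in Nkx6-2 and Isl1. It was found in 72.3% of all promoters. Both motifs are short and common.

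Genes that work with these factors were also looked up, beside the 12.1% of all protein-coding genes in the higher list. Of 14 ParaHox relatives and TALE cofactors, which bind DNA together with homeodomain proteins such as Pdx1, 3 (21.4%) were in the higher list. Among them were Pbx3 and Meis1, with long territories of 359.7 and 1055 kb. Of 18 LIM cofactors, corepressors and coactivators, 4 (22.2%) were in the higher list. Lmo1 and Lmo4 encode LIM-only proteins, and Tle3 and Tle4 encode Groucho corepressors of the kind recruited by Nkx6 and Hhex proteins. Their territories were 116.2 kb for Lmo1, 702.8 kb for Lmo4, 539.5 kb for Tle3 and 1068 kb for Tle4. Ldb1, the adaptor that joins LIM homeodomain proteins, was in neither list.

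Of 16 beta-cell genes bound or controlled by these factors, 4 were in the higher list. They were Ins1 (an insulin gene), Abcc8 (the sulfonylurea receptor), Ero1b (an oxidase of proinsulin folding) and Pcx (pyruvate carboxylase). Ins1 had a long territory of 1126 kb. Ins2, also an insulin gene, was among the 12 in neither, as were Slc2a2, Iapp, Slc30a8, G6pc2 and Ucn3. Of 12 other homeodomain factors of the pancreas, 5 were in the higher list, among them Pax4, Onecut2, Prox1 and Irx1. Pax6 and Onecut1 were among the 7 in neither. Over all 87 related genes, 19 (21.8%) were in the higher list and 1 (1.15%, Lhx1) in the lower list, against 12.1% and 1.51% of all protein-coding genes.

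Other homeobox genes, gathered by symbol family after the lists had been seen, give a closer background for the homeodomain factors. Of 192 such genes 37 were in the higher list, which is 19.3% (exact interval 13.9 to 25.6%), and 5 in the lower list, which is 2.6%. The 8 homeodomain factors described here had 5 and 0. Of the 192 other genes, 39 are Hox genes, and 0 of those were in the higher list. Without the Hox genes the higher list share was 24.2% (37 of 153). Of the homeobox genes outside the Hox clusters with territories in the 3 shortest deciles, 2 of 22 others were in the higher list. The homeodomain factors had 3 in that range, Nkx6-2, Nkx6-3 and Isl2, all of them named. Mafa, which is not a homeodomain factor, was also in that range and was in neither list.

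**Figure D4:**
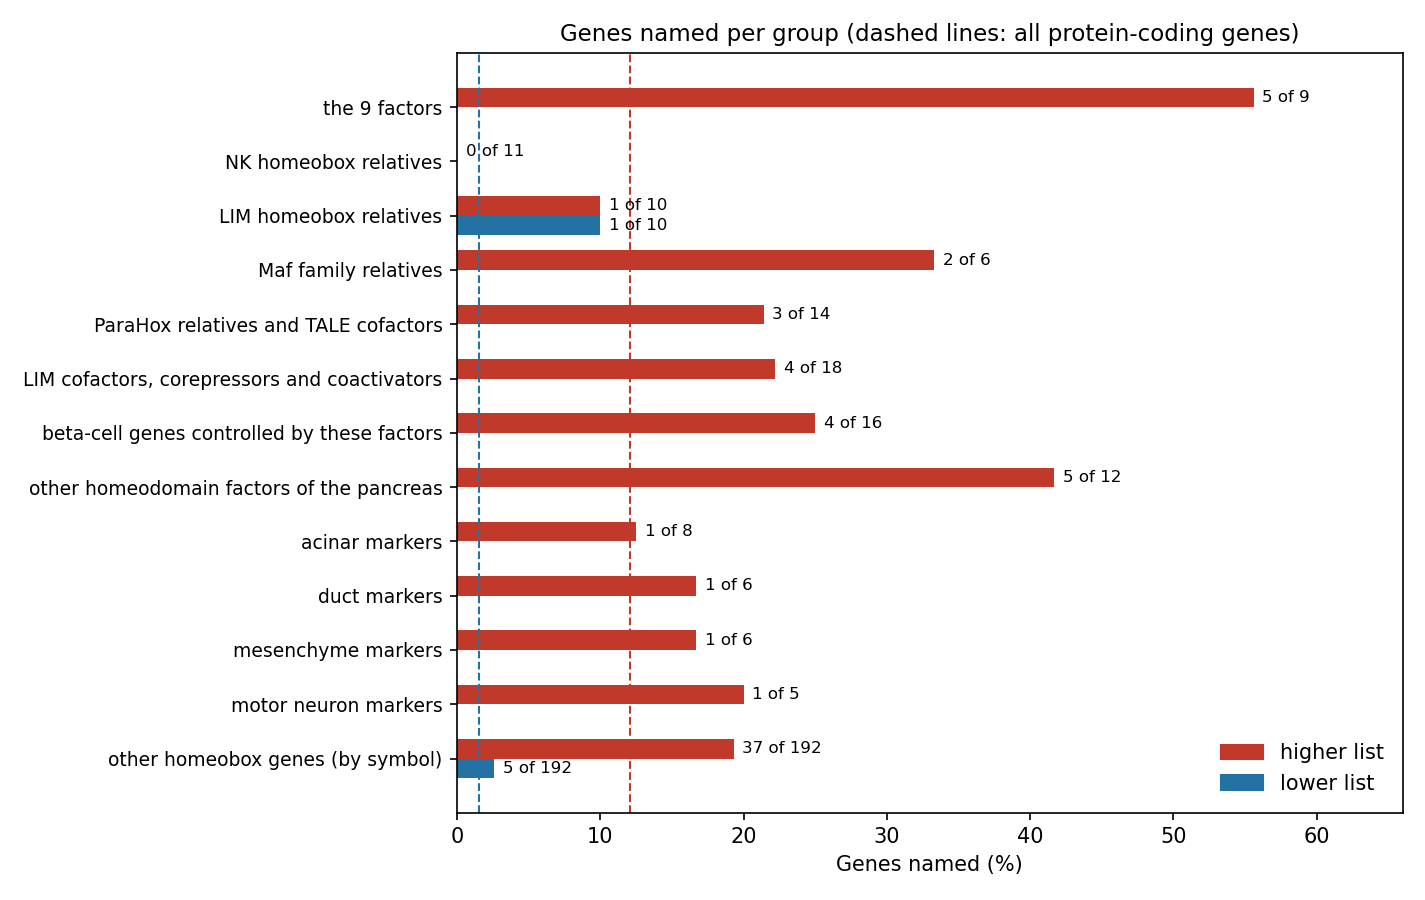
Percentage of genes named in the higher (red bars) and lower (blue bars) lists for the 9 factors, groups of related genes, markers of other cell types and other homeobox genes, with counts beside the bars. Dashed lines mark the shares of all protein-coding genes, 12.1% and 1.51%. The 9 factors stand at 5 of 9 and the other NK homeobox genes at 0 of 11.

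Marker genes of other cells of the pancreas and of motor neurons stood at 4 of 25 (16.0%) in the higher list. The share of all protein-coding genes was 12.1%, with no test of the difference. There was 1 of 8 acinar genes (Cela1), 1 of 6 duct genes (Cftr), 1 of 6 mesenchyme genes (Barx1) and 1 of 5 motor neuron genes (Olig2). The lower list held 0 of these 25 genes. Mnx1, Isl1 and Isl2 are themselves expressed in motor neurons, and Isl1 also in pancreatic mesenchyme. The part of other cells in these results was not tested.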

How the data were processed

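Whole-genome bisulfite libraries of Ngn3 null and Ngn3 heterozygous cells (1 each, about 400000000 reads of 150 bp per library, per the labels) were compared by the authors. The submitters' processing notes name Trim Galore and the builds mm10 and GRCm38. The aligner, region caller, thresholds, coverage minimum and nearest-gene rule were not given in the sources used here, and coverage at each locus is unknown. The deposited table has 9 columns of gene names and no measured quantity. Per the file headers, column 1 holds the lower list (429 names) and column 2 starts the higher list (3230 names). The 7 columns without a header were read as its continuation, since they carry on its alphabetical order.

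Ignoring case, names were matched to symbols, gene IDs and unique older symbols of 49997 genes of RefSeq GRCm38.p6, which placed 406 and 3145 of them. None of the 9 factors was found under an older name or ID. Matching was tried on simulated lists of symbols and gene IDs drawn from the same reference, with the case varied. That trial checks the handling of case and IDs only. It does not bear on older symbols or on the names that were not placed. Shares were taken over protein-coding genes of the autosomes, X and Y. Python 3.11.15, pandas 2.3.3 and scipy 1.17.1 were used. With 1 library per genotype no p-value can be given. The planned methylation levels and region positions are not in the table, so no test was run on them.

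The factors and the 11 gene lists were chosen with earlier results of these data known. The genes named were the 9 factors, the protein-coding genes beside each, list members in the lower list, up to 6 per list in the higher list, and other homeobox genes in both lists. Further genes given as being in neither list are examples. Some genes that this rule takes are not reported here.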

Additional observations from a re-analysis of the deposited data

How the results depend on the processing

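With current symbols only, the higher list held the 5 factors and 18 related genes in place of 19, since the beta-cell genes there numbered 3 in place of 4, and the lower list counts were as reported. Reading names in exact case gave 0 of 9 factors in the higher list and 2 related genes there, with 0 in the lower list, because most names are printed in capitals and Nkx6-2 in lower case. Taking column 2 alone as the higher list gave 0 factors and 1 related gene, because the 5 factors stand in columns 5 and 6. The lower list held 0 factors under every reading. The share of genes in the higher list was 12.7% on autosomes only, 6.29% over all gene classes and 19.3% over other homeobox genes, a setting chosen after seeing the data. For the lower list, all gene classes gave 0.812% and other homeobox genes 2.6%. The median promoter count was 26 CpG sites in the 250 bases before the start. The protein-pattern background, coverage, difference and distance settings were not run, since they need sequences, levels or positions that were not analysed. No paired analysis was possible because there is a single library for either genotype.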

Other observations

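Among the other homeobox genes, En1 (chromosome 1, a midbrain and limb factor), Isx (chromosome 8, an intestinal factor) and Zfhx3 (chromosome 8) were in both lists. Lhx1 and Msx2, a limb and skull factor, were in the lower list alone. All 5 homeobox genes of the lower list had territories in the 3 longest deciles, where 199 of the 331 protein-coding genes of that list also fell. Outside the Hox clusters, 30 of 76 other homeobox genes in those deciles were in the higher list, against 24.3% of all protein-coding genes there. In the middle 4 deciles 5 of 55 were, against 8.92%, and in the 3 shortest deciles 2 of 22 (among them Pax4), against 4.04%. These sets were gathered after the lists had been seen, and the differences were not tested.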
